A study of Arabidopsis thaliana with 4 samples.

Results

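Transcripts of 10 Arabidopsis thaliana genes that take up nitrate, reduce it to ammonium and move the nitrogen into glutamine, glutamate and asparagine were compared between wild type (WT) seedlings and seedlings of a mutant of phytochrome B (phyB), a photoreceptor that senses red light. The genes were taken by name and locus code, and all 10 are among the 27416 gene models of the deposited tables. They are NRT1.1 and NRT2.1 for uptake, NIA1, NIA2 and NIR1 for reduction, GLN1;1, GLN2 and GLU1 for ammonium assimilation, and ASN1 and ASN2 for asparagine synthesis. Both genotypes are of the Col-0 ecotype, and the labels name no phyB allele. Their seedlings shared all other conditions. After a cold period of 4 days at 4 °C they received white light for 12 h, then 4 days of red light (60 μmol/m2/s), for a growth time of 4.5 days, on MS medium of reduced strength with 1% sucrose.

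Nitrate enters root cells through NRT-type transporters and is reduced to nitrite in the cytosol by nitrate reductase, and nitrite is reduced to ammonium in plastids by nitrite reductase, which takes electrons from ferredoxin. Glutamine synthetase and glutamate synthase then bind the ammonium into amino acids, in leaves together with the ammonium freed by photorespiration. Asparagine synthetase moves the amide of glutamine to aspartate, and asparagine serves as a carrier of nitrogen when carbon is scarce. Light and sugar are known to raise transcripts of nitrate reductase and of plastid glutamine synthetase, while ASN1, also named DARK INDUCIBLE 6, is known as a gene whose transcript accumulates in darkness and is held down by light through phytochrome.

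The labels list 2 samples per genotype, but each genotype has 1 column of reads and 1 of RPKM (reads scaled by coding length and by the column total). No value has a replicate, no test across replicates was possible, and differences are given as both values with their log2 ratio, phyB over WT. The 95% intervals are exact conditional intervals from the read counts and cover counting error only. Column totals were 33521717 reads for WT and 33201394 for phyB. The 10 genes took 0.495% of them in WT and 0.449% in phyB. PHYB itself, the check of the label, stood at 36.3 and 14.1 RPKM. The titles of the WT samples carry a word for a repeated analysis that those of the mutant lack, so genotype and a possible batch cannot be told apart. In whole seedlings fewer cells of a type and less RNA per cell cannot be told apart either. All 4 root markers had reads (COBL9, EXP7, RHD6 and PHT1;1), with a summed level of 64.1 RPKM in WT and 63.3 in phyB, most of it PHT1;1. Their log2 ratios ran from -0.51 (RHD6, interval -0.99 to -0.04) to 0.30 (EXP7, -0.02 to 0.62). COBL9 was at -0.25 (-0.56 to 0.06) and PHT1;1 at -0.02 (-0.10 to 0.06). The part of root tissue in the results below was not tested. The 4 markers of green tissue (LHCB1.3, RBCS1A, CAB3 and GLDP1) summed to 27994 and 27426 RPKM. Their log2 ratios ran from -0.23 (CAB3) to 0.17 (RBCS1A), with LHCB1.3 at -0.18 and GLDP1 at -0.06.

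The sequences that bear on the results below are those of asparagine synthetase and of the NRT2 pair. ASN1 (chromosome 3, 17437840 to 17441431, minus strand, 10 exons) and ASN2 (chromosome 5, 25969035 to 25972575, plus strand, 13 exons) had ratios on opposite sides of 0, and the 250 bases before each annotated start are shown 5′ to 3′ from the RefSeq TAIR10.1 reference. Capitals mark the G-box CACGTG, the core bound by light-regulated bZIP and bHLH factors, and the I-box GATAAG of light-regulated genes, searched on both strands. The ASN1 stretch is chr3:17441432-17441681 on the minus strand, and the ASN2 stretch is chr5:25968785-25969034 on the plus strand.
ASN1: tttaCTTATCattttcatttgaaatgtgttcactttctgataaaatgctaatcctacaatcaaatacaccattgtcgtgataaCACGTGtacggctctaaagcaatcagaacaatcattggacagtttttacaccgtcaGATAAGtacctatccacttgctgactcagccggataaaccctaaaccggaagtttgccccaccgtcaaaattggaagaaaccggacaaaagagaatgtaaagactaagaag
ASN2: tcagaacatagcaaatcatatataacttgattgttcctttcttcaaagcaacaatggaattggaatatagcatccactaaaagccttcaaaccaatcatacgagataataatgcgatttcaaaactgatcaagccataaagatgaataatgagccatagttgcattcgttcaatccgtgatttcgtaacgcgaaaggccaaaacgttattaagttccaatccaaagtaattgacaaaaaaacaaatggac

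ASN1 was the only one of the 10 members with a CACGTG in this window, a string held by 6.58% of the 26710 upstream windows of nuclear genes in the table. GATAAG was in 2 of the 10 members, ASN1 and NRT2.1, against 12.2% of all windows, and ASN1 held it on both strands. TGACG, the core of TGA-type bZIP factors, was in ASN1 alone of the members and in 18.6% of all windows. The ACGT core, which the G-box contains, was in NIA2, GLN2, ASN1 and ASN2, against 44.2% of all windows, and the evening element AAATATCT was in 0 of 10, against 4.84%. The ASN1 window also holds most of AT3G47341, a short gene on the opposite strand. A match describes the letters only.

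The coding sequences of ASN1 and ASN2 are 1755 and 1740 nt long and identical at 70.7% of 1737 aligned bases, with no identical run over 23 nt. The 90 aligned bases that differ most are shown from base 701 to 790 of each coding sequence, with the 39 differing bases in capitals.
ASN1: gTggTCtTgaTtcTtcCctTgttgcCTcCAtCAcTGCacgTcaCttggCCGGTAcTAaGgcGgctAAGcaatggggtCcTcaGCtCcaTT
ASN2: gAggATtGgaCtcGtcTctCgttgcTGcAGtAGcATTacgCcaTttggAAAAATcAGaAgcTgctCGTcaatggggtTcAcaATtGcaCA

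NRT2.1 and its tandem neighbour NRT2.2 are much closer, identical at 89.4% of 1569 aligned bases with a longest identical run of 170 nt, and they are shown because both were listed at 0 reads. Their most different 90 bases run from base 1454 to 1543 in NRT2.1 and from 1445 to 1534 in NRT2.2, with 34 differing bases in capitals.
NRT2.1: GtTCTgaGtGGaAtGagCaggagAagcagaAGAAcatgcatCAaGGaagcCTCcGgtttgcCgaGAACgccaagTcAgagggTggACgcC
NRT2.2: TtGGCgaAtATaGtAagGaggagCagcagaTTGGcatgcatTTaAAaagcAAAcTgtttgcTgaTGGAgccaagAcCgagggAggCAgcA

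Of the 10 genes, 9 had reads, at 26.9 to 727 RPKM, and NRT2.1 had none. None of the 9 was 2-fold higher or 2-fold lower in phyB. Among the 19296 gene models averaging 1 RPKM or more, here called described, 3.20% were 2-fold or more higher, 2.18% were lower by that factor, and 5.38% were either. At 1.5-fold, 1 of the 9 was lower (ASN1) and none higher, against 7.27% and 9.75% of those gene models. Counts this small among 9 genes do not set them apart from the other models. Ratios were below 0 for 5 genes (51.0% of all described models) and above 0 for 4 (49.0%). Their median log2 ratio was -0.09, beside -0.01 for all described models, whose quartiles lay at -0.25 and 0.26. The 95% counting interval excluded a ratio of 1 for all 9, but at this depth it did so for 61.9% of all described models.

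**Figure D1:**
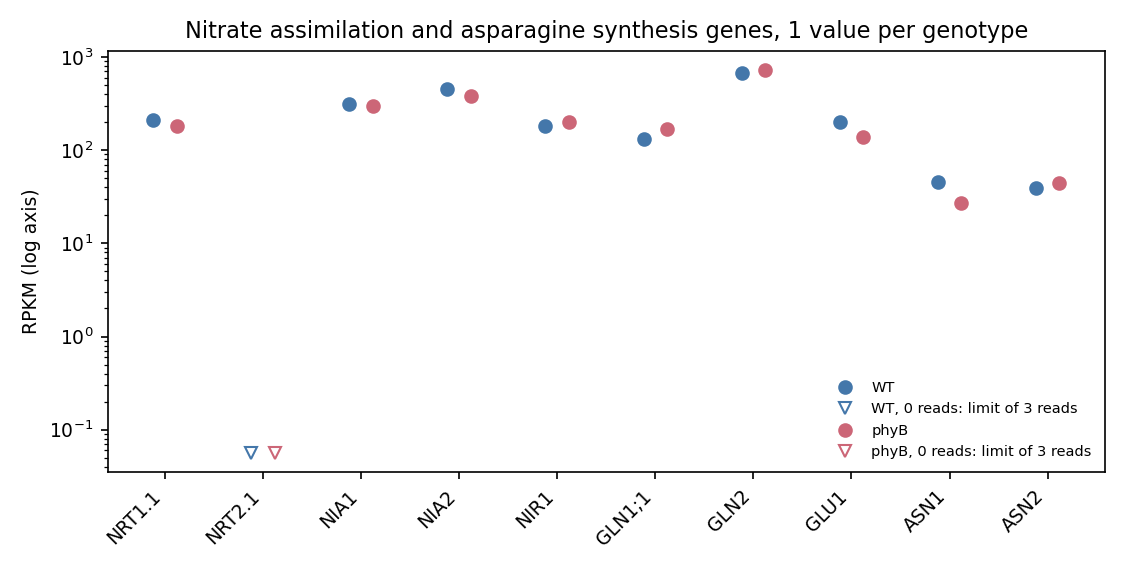
RPKM on a log axis for each of the 10 genes, with 1 point per genotype and no replicate. Triangles mark NRT2.1, which had 0 reads, at the RPKM of 3 reads (0.0562 in WT and 0.0567 in phyB). GLN2 is highest in both genotypes, and the points of ASN1 and GLU1 stand furthest apart.

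GLN2 was the most abundant transcript in both genotypes, followed by NIA2 and NIA1. In WT the order then ran NRT1.1, GLU1, NIR1 and GLN1;1, and in phyB NIR1, NRT1.1, GLN1;1 and GLU1. The asparagine synthetase genes came next, with ASN1 above ASN2 in WT and below it in phyB. Whether neighbours in this order differ beyond the spread between samples cannot be said from 1 column per genotype.

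Of the uptake genes, NRT1.1 (AT1G12110, chromosome 1, 4105223 to 4109601, plus strand, 5 exons), a dual-affinity nitrate transporter that also acts as a nitrate sensor, had 12531 reads and 211 RPKM in WT and 10778 reads and 183 RPKM in phyB. The log2 ratio was -0.20 (95% counting interval -0.24 to -0.17). Of all described models 59.0% had a larger absolute ratio, or 73.7% with the coding-length trend described below removed.

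NRT2.1 (AT1G08090, chromosome 1, 2524023 to 2526322, plus strand, 3 exons), the main high-affinity nitrate transporter of roots, was listed at 0 reads in both genotypes. A count of 0 allows up to 0.0562 RPKM in WT and 0.0567 RPKM in phyB, and no ratio was computed. NRT2.2 and NRT2.3 also had 0 reads in both columns, NRT2.4 had 0 and 1, NRT2.5 had 0 and 4, and NRT2.6 had 11 and 16. Reads of this family came from NRT2.7, a vacuolar transporter best known from seeds, with 538 reads in WT and 563 in phyB (10.8 and 11.4 RPKM). NRT3.1, the partner protein that NRT2.1 needs for transport, was present at 23.2 and 23.7 RPKM, from 492 and 498 reads. In a search of all coding sequences for local matches, NRT2.1 and NRT2.2 matched at 91.8% identity over 1409 nt, or 88.4% of NRT2.1, while the 89.4% given above is over the whole alignment. By this local measure the other 9 members have no copy at 90% identity over 80% of the length. NRT2.3, NRT2.4, NRT2.5 and NRT2.6, also at or near 0 reads, have none either. Among nuclear models with such a copy 21.8% of 1414 had 0 reads in both genotypes, against 11.2% of 25296 without one. The part of shared reads in the 0 of NRT2.1 was not tested.

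As deposited, the nitrate reductase genes were slightly lower in phyB and nitrite reductase slightly higher, but NIA1 turned to 0.08 with the coding-length trend described below removed and NIR1 to -0.04 under quantile normalization. NIA1 (AT1G77760, chromosome 1, 29235721 to 29239484, minus strand, 4 exons) had 29003 reads in WT and 27011 in phyB, or 314 and 295 RPKM, a log2 ratio of -0.09 (-0.11 to -0.06). NIA2 (AT1G37130, chromosome 1, 14158452 to 14161938, plus strand, 3 exons), known as the source of most nitrate reductase activity in shoots, had 41972 and 35145 reads, or 455 and 384 RPKM, a ratio of -0.24 (-0.26 to -0.22). Their summed level was 769 RPKM in WT and 680 in phyB, of which NIA2 made up 59.1% and 56.5%. Both coding sequences are 2754 nt long and 72.9% identical, so the ratio of NIA2 to NIA1 within a column does not depend on scaling by length or total. It was 1.45 in WT and 1.3 in phyB, a log2 difference of -0.15 (95% counting interval -0.19 to -0.12). NIR1 (AT2G15620, chromosome 2, 6810395 to 6812941, plus strand, 4 exons) had 10789 reads in WT and 11810 in phyB, or 183 and 202 RPKM, a ratio of 0.14 (0.11 to 0.18). The level of NRT1.1 relative to NIR1, whose lengths differ by few bases, was 1.15 in WT and 0.906 in phyB.

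As deposited, both glutamine synthetase members were somewhat higher in phyB, but GLN2 turned to -0.05 under quantile normalization. GLN1;1 (AT5G37600, chromosome 5, 14933286 to 14935885, minus strand, 9 exons), a cytosolic isoform, had 4774 reads and 133 RPKM in WT and 5989 reads and 168 RPKM in phyB. Its log2 ratio of 0.34 (0.29 to 0.40) was the highest of the 9. GLN2 (AT5G35630, chromosome 5, 13830429 to 13833542, plus strand, 11 exons), the plastid isoform of leaves, had 28872 and 31219 reads, or 666 and 727 RPKM, a ratio of 0.13 (0.10 to 0.15). Of the summed glutamine synthetase level, 1403 RPKM in WT and 1617 in phyB, GLN2 held 47.5% and 45% and GLN1;1 held 9.48% and 10.4%. GLN1;2, the most abundant cytosolic isoform, held 35.8% and 38.2%.

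GLU1, in contrast, was lower in phyB. It encodes the ferredoxin-dependent glutamate synthase, which works beside GLN2 in leaf plastids (AT5G04140, chromosome 5, 1129785 to 1138488, plus strand, 32 exons). It had 33150 reads in WT and 22936 in phyB, or 200 and 140 RPKM, a log2 ratio of -0.52 (-0.54 to -0.49). Of all described models 21.1% had a larger absolute ratio, or 38.7% with the coding-length trend described below removed. The NADH-dependent enzyme gene GLT1 stood at -0.14 (-0.16 to -0.11) and GLU2, the second ferredoxin-dependent gene, at -0.14 (-0.19 to -0.09). The level of GLU1 relative to GLT1 was thus 1.63 in WT and 1.25 in phyB, a log2 difference of -0.38 (-0.41 to -0.34), and GLU1 held 55.5% and 48.9% of the summed glutamate synthase level of 360 and 285 RPKM. The end of GLU1 overlaps BHLH101 (AT5G04150) on the opposite strand. That gene had 82 reads in WT and 25 in phyB, few beside those of GLU1.

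Of the 6 gene pairs whose ratios were compared, that of ASN1 to ASN2 differed most between the genotypes. ASN1 (AT3G47340) had 2703 reads and 45.9 RPKM in WT and 1568 reads and 26.9 RPKM in phyB, so that its level in phyB was 0.586 times that in WT. The log2 ratio was -0.77 (-0.86 to -0.68), the lowest of the 9. A larger absolute ratio was seen in 9.77% of all described models, or 11.4% with the coding-length trend described below removed. AT3G47341, which overlaps the start of ASN1 on the opposite strand, had 0 reads in both genotypes. ASN2 (AT5G65010), the isoform known to be raised by light, had 2293 reads in WT and 2562 in phyB, or 39.3 and 44.3 RPKM, a ratio of 0.17 (0.09 to 0.26). ASN3, the third isoform, had 684 and 977 reads and stood at 0.53 (0.39 to 0.67). It is 86.7% identical to ASN2, with no identical run over 32 nt.

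The level of ASN1 relative to ASN2 was 1.17 in WT and 0.607 in phyB, a log2 difference of -0.95 (95% counting interval -1.07 to -0.82). This ratio is formed within each column between genes of nearly equal length, and it stood at -0.94 with the coding-length trend described below removed. The summed level of the 3 isoforms was 97.0 RPKM in WT and 88.2 in phyB, a log2 ratio of -0.14. ASN1 held 47.4% of it in WT and 30.5% in phyB, ASN2 40.5% and 50.3%, and ASN3 12.1% and 19.2%.

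**Figure D2:**
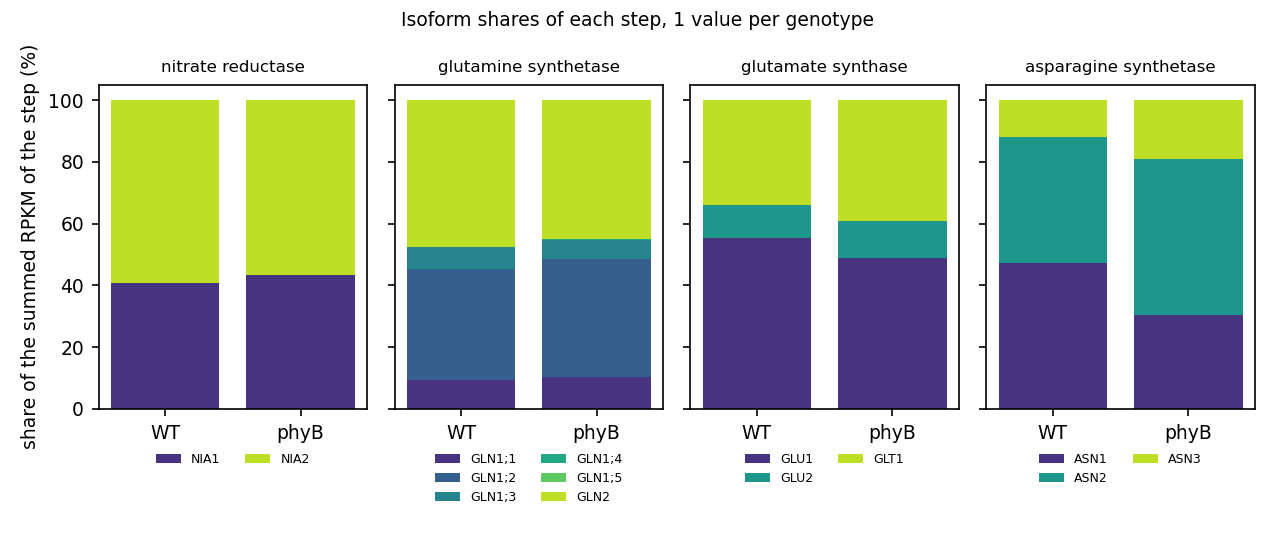
Share (%) of each isoform in the summed RPKM of its step, with 1 bar per genotype and no replicate. The share of ASN1 is 47.4% in WT and 30.5% in phyB, while the shares of NIA1 and NIA2 differ by less than those of ASN1.

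**Figure D3:**
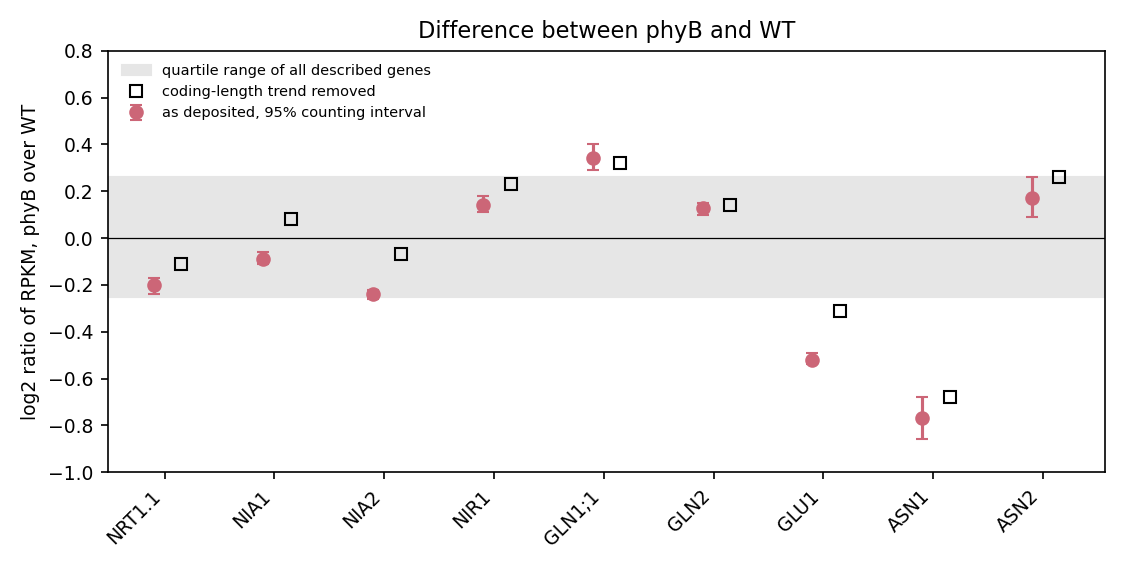
Log2 ratio of RPKM, phyB over WT, for the 9 genes with reads. Filled points are values as deposited with 95% counting intervals, and squares are values with the coding-length trend removed. The grey band spans the quartiles of all described gene models as deposited (-0.25 to 0.26) and was not redrawn for the squares. As deposited, ASN1 and GLU1 lie below the band and GLN1;1 above it.

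Ratios in these columns moved with the length of the coding sequence. The 9 members with reads had a median length of 1761 nt, against 1119 nt for all described models, though GLN1;1 has 1071 nt. Described models under 600 nt had a median log2 ratio of 0.23, and those of 2700 to 4500 nt one of -0.21. The trend was at -0.22 at the length of GLU1 (4947 nt), at -0.18 for NIA1 and NIA2, and at -0.10 for ASN1. For GLN1;1 and GLN2 it was at 0.01 and -0.02. With the trend removed, GLU1 stood at -0.31, ASN1 at -0.68, NIA2 at -0.07 and NRT1.1 at -0.11, and NIA1 turned from -0.09 to 0.08. GLN1;1 stood at 0.32, ASN2 at 0.26, NIR1 at 0.23 and GLN2 at 0.14. The median of the 9 moved from -0.09 to 0.08. GLT1 and GLU2 turned to 0.08 and 0.07, while the difference between GLU1 and GLT1 was -0.39. Quantile normalization of RPKM moved most members the other way, NIA2 to -0.50, NIA1 to -0.36, NRT1.1 to -0.37 and GLU1 to -0.67, besides the turns of NIR1 and GLN2 given above. GLN1;1, lowered by both steps, stood at 0.23 with quantile normalization, and ASN1 and ASN2 stood at -0.76 and 0.18. The directions of ASN1, GLU1, NIA2 and NRT1.1 (lower) and of GLN1;1 and ASN2 (higher) were the same under all 9 alternatives run.

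**Figure D4:**
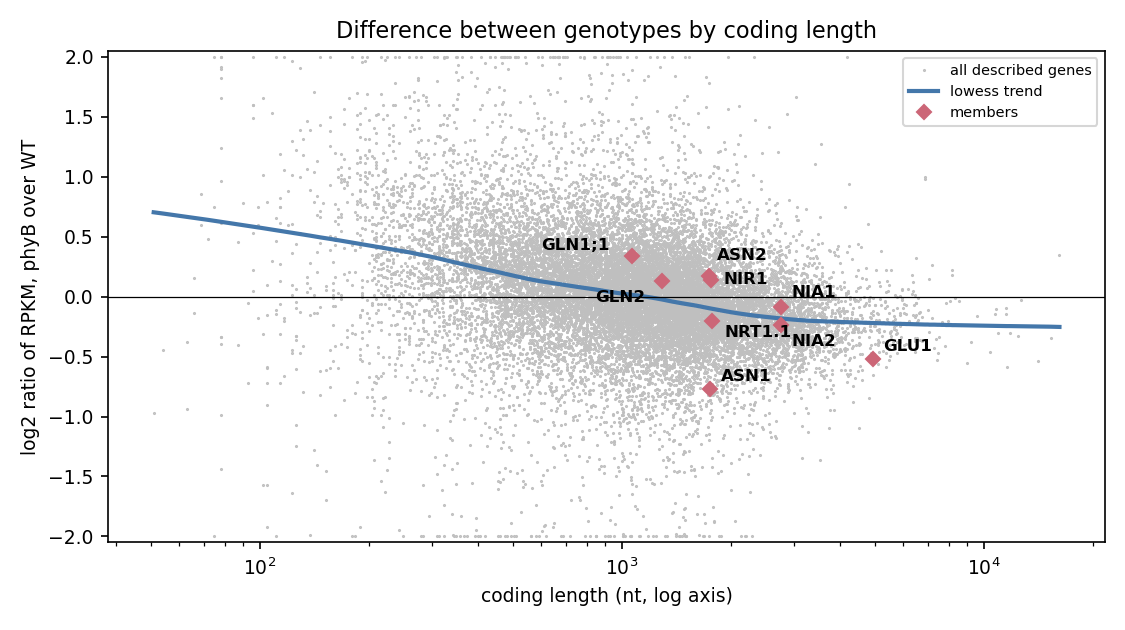
Log2 ratio of RPKM, phyB over WT, against coding length (nt, log axis) for described gene models (grey, values beyond 2 drawn at 2 and below -2 at -2), with the lowess trend (line) and the 9 members with reads (diamonds). NIA1, NIA2 and GLU1 sit where the trend is below 0, and ASN1 lies well under it.

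The wider pathway was described with 8 lists, chosen with earlier results of these data known, so their counts are descriptive only. They hold 127 genes, of which 126 were in the table and 114 were described. Of these 114, 1 was at least 2-fold lower (BT1) and 0 were 2-fold higher, against 2.18% and 3.20% of all described models. Ratios were below 0 for 66 and above 0 for 48, against 51.0% and 49.0%. The list of nitrate transport had 4 ratios above 0 and 12 below 0 among 16 described genes, NRT1.1 included, and its median was -0.15. With the length trend removed, 5 were above 0 and 11 below, and the median was -0.07. All 9 described NRT1-type transporters lay below 0, the highest at -0.00. Of them 7 had a counting interval wholly below 0, as did 32.0% of all described models. Their median was -0.20, which the removal of the length trend moved to -0.11 with 7 ratios below 0. NRT1.5, which loads nitrate into the xylem, had 459 RPKM in WT and 345 in phyB (-0.41, interval -0.44 to -0.39). It overlaps AT1G32440 on the opposite strand. Of the 126 genes 37 overlap such a gene. Among those named these are NRT1.5, CLCA, AMT1;1, UPM1, DIN10, CPK10, CPK30 and GLB1 beside ASN1 and GLU1. Where strand was not used, the reads of a pair cannot be told apart. CLCA, the exchanger that stores nitrate in the vacuole, had 13152 and 7680 reads and the lowest ratio of the list at -0.76 (-0.80 to -0.72), and -0.61 with the length trend removed. It overlaps AT5G40880 on the opposite strand. The 4 described ammonium transporters had a median of -0.22, with AMT1;1, a root high-affinity transporter, at -0.35. With the length trend removed their median was -0.16, with 1 ratio above 0 and 3 below.

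Genes that supply nitrate and nitrite reduction with cofactors and electrons lay mostly above 0. Without the 3 members in it, the list had 15 of 17 ratios above 0, beside 49.0% of all described models, and a median of 0.23. With the length trend removed these were 13 of 17 and 0.17. UPM1 and SIRB, which make the siroheme of nitrite reductase, stood at 0.43 (0.37 to 0.48) and 0.44 (0.24 to 0.64). RFNR1, a root-type ferredoxin-NADP reductase, had 1004 reads in WT and 1628 in phyB and the highest ratio of the list at 0.71 (0.60 to 0.83). FD2, the main leaf ferredoxin, had 3909 and 4907 RPKM (0.33), but its coding sequence is short, and it stood at 0.11 with the length trend removed. Of the 8 genes of molybdenum cofactor and siroheme synthesis, 7 had ratios above 0, and 5 did so with that trend removed.

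**Figure D5:**
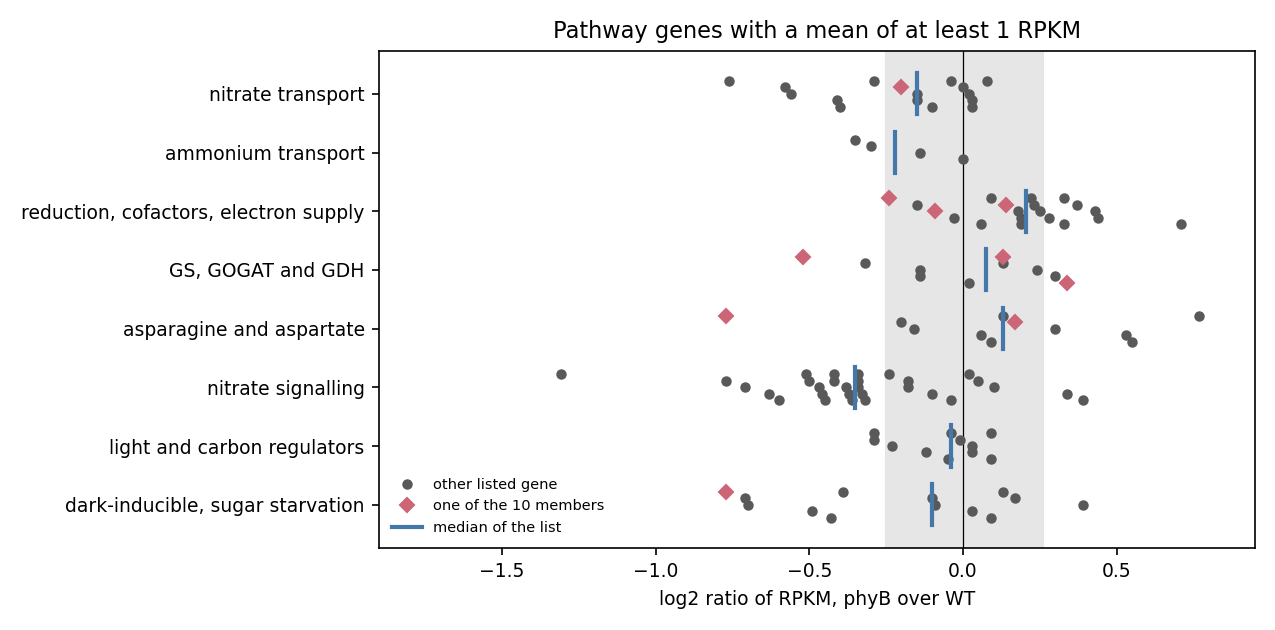
Log2 ratio of RPKM, phyB over WT, for each described gene of the 8 pathway lists (1 point per gene, members as diamonds, list medians as bars, quartile range of all described models in grey). The points of the nitrate signalling list lie mostly left of 0 and those of the reduction list mostly right of it.

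Nitrate signalling genes were the list with the lowest median. Of 30 described genes 25 had ratios below 0 and 5 above 0, beside 51.0% and 49.0% of all described models. The median was -0.35, or -0.33 with the length trend removed. At 2-fold 1 was lower, against 2.18% of all described models, and at 1.5-fold 5 were lower, against 7.27%. BT1, a BTB and TAZ domain protein of the nitrate response network, had 1781 reads in WT and 709 in phyB, or 48.4 and 19.4 RPKM (-1.31, interval -1.44 to -1.19). Its relative BT2 stood at -0.37. NLP7, the transcription factor that starts the primary nitrate response, had 2954 and 1720 reads (-0.77, interval -0.85 to -0.68, and -0.59 with the length trend removed). Of the 9 NLP genes 8 lay below 0 (median -0.36, or -0.20 with the length trend removed). NLP3 was the exception at 0.10, with a counting interval of -0.18 to 0.37. The 4 genes of the HRS1 and HHO family, repressors of nitrate uptake genes, all had ratios below 0, from -0.60 for HRS1 to -0.34 for HHO1. LBD37, LBD38 and LBD39, which repress nitrogen-responsive genes, were all below 0, with a median of -0.18. The 5 kinases of the list, CIPK8, CIPK23, CPK10, CPK30 and CPK32, all lay below 0 too, with a median of -0.42. Besides NLP3, the genes of this list above 0 were GLB1 at 0.39 (0.16 to 0.62), TCP20 at 0.34 (0.14 to 0.54), CBL9 at 0.05 (-0.20 to 0.30) and NRG2 at 0.02 (-0.05 to 0.09). CIPK23, which phosphorylates NRT1.1, was at -0.32.

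The dark-inducible and sugar-starvation genes, a set known to accumulate with ASN1 when carbon runs short, did not share one direction. Without ASN1, 5 of 12 described genes had ratios above 0 and 7 below 0, beside 49.0% and 51.0% of all described models. The median of the 12 was -0.10. DIN10, the most abundant of them, stood at 0.09 and DIN1 at 0.39 (0.29 to 0.49), while TPS8 was at -0.71 and EXL1 at -0.70. The list of light and carbon regulators had a median of -0.04 over 11 genes, with its lowest ratio at -0.29 and its highest at 0.09. BZIP53 was at -0.01, and BZIP1, a bZIP factor known to act on ASN1, and HY5, a bZIP factor of light signalling, were each at -0.29. With the length trend removed they stood at -0.52 and -0.47, and BZIP53 at -0.23.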

How the data were processed

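Libraries came from poly(A) RNA of seedlings, per the labels' protocols, and groups follow the labelled genotype. The authors deposited 1 column of estimated counts (reads per gene model, with 0.5 in place of 0) and 1 column of RPKM for each genotype, as the file headers name them (per the file headers). It is unknown whether both samples were pooled in it. Not given in the sources used here are aligner, counter, strand and the treatment of shared reads. The submitters' processing notes name the build TAIR10. Entries of 0.5 (4164 in WT, 4100 in phyB) were set to 0. RPKM equals reads per column total and an implied length, which matched a RefSeq TAIR10.1 coding sequence for all 10 members. Models averaging 1 RPKM or more are called described (19296), and a lone 0 was set to 3 reads for ratios, with no ratio where the other column held 3 reads or fewer. The difference is the log2 ratio of deposited RPKM, with Clopper-Pearson conditional 95% intervals (scipy 1.17.1). Reads copied by PCR are not independent molecules, so intervals and limits cover counting error only. Pair ratios used the noncentral hypergeometric form. The steps were checked on simulated data.

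Alternatives were RLE, upper-quartile and TMM factors (edgeR 4.0.16), median scaling, quantile normalization, totals without organelle genes, pseudocounts of 1 and 0.1, and removal of a lowess trend on coding length (span 0.3, statsmodels 0.14.6). Copies came from BLAST 2.17.0 and identities from MAFFT 7.526. The members and lists were chosen with earlier results of these data known. The rule for naming took all members, PHYB, and per list up to 4 other genes at 2-fold and 5 RPKM, else the gene of highest mean (NRT1.5, AMT1;1, FD2, GLN1;2, ASP3, BT1, BZIP53 and DIN10). All other list genes were named after their values were seen. With 1 value per genotype no gene was named for likeness of pattern, and the replicated tests of the design were not applicable.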

Additional observations from a re-analysis of the deposited data

How the results depend on the processing

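At a threshold of 1.5-fold, 1 of the 10 members was lower in phyB, and 2 of the 114 described pathway genes were higher and 9 lower, beside 9.75% and 7.27% of all described models. Without the filter on low values 1 pathway gene was 2-fold higher, AMT1;4 with 1 read in WT and 5 in phyB. Of all gene models, against 617 higher and 421 lower, the counts were 373 and 247 with a pseudocount of 1, 1881 and 1402 at 1.5-fold, 1399 and 903 without the filter, and 321 and 197 among models averaging 5 RPKM or more. These follow from how each criterion is built. The split was 442 higher and 510 lower once the trend with coding length was taken out, and the cause of that trend was not tested. Over the other 8 settings ASN1 lay between -0.78 and -0.73 and GLU1 between -0.67 and -0.47. The ratio left its counting interval for 7 of 9 members with quantile normalization, 6 with upper-quartile factors, 6 without the length trend, and 0 in each of the other 6 settings. No paired analysis was possible because replicate numbers are missing from the columns, of which there is 1 per genotype. Leaving out replicates and the edgeR, limma and DESeq2 tests were therefore not run. Depth limits little here except for NRT2.1 and its relatives near 0 reads.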

Other observations

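Of the 8 genes for asparaginases, which free the amide of asparagine, and aspartate aminotransferases, 6 had ratios above 0 (median 0.11), and 6 did so without the coding-length trend (median 0.10). Among all described models 49.0% lay above 0. ASPGB1, an asparaginase, had 124 reads in WT and 210 in phyB (log2 ratio 0.77, lower bound of the 95% counting interval 0.45). ASP2, the cytosolic aspartate aminotransferase, had 2446 and 3546 reads (0.55, interval 0.47 to 0.62). ASP3, the most abundant gene of the list outside the members, was at -0.20. GDH2, a subunit of the mitochondrial glutamate dehydrogenase, stood at 0.24 (0.20 to 0.29), and GLB1, the plastid PII protein that senses nitrogen status, at 0.39 (0.16 to 0.62, and 0.25 with the length trend removed).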
